A study of Homo sapiens with 6 samples.

Results

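The BCL2 family decides at the outer mitochondrial membrane whether a cell starts apoptosis, and 10 of its genes were followed here after silencing of RNF31. They are the anti-apoptotic genes BCL2, BCL2L1 and MCL1, the BH3-only genes BCL2L11, BBC3, PMAIP1, BMF and BID, and the effector genes BAX and BAK1. They were taken by gene symbol from tables of 17645 genes, and all 10 symbols were present. The cells were labelled MDAMB231, a widely used human cell line from a triple negative breast tumour. The siRNF31 group was transfected with siRNA against RNF31 and the siControl group with a control siRNA. Both groups held 3 libraries, taken 48 h after transfection. The RNF31 protein (HOIP) carries the ligase activity of the complex that assembles linear ubiquitin chains. The labels do not say whether replicates were separate cultures, so p-values reflect the spread of these 6 libraries alone, and that spread may be technical.

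Anti-apoptotic members hold the effectors BAX and BAK in check. BH3-only proteins respond to stress by occupying the groove of the anti-apoptotic proteins or by activating the effectors, which then form pores that release cytochrome c and lead to caspase activation. The BH3-only proteins differ in their partners: NOXA, the product of PMAIP1, binds mainly MCL1, while BIM, PUMA and the truncated form of BID bind all the main anti-apoptotic proteins. Much of the family's control lies in protein stability, splicing and cleavage, which mRNA levels per gene do not show. The tables held 1 value per gene, so the long and short forms of BCL2L1, MCL1 and BCL2L11 were not separated.

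RNF31 measured 1.92, 2.12 and 1.86 FPKM (fragment counts divided by transcript length and library size) in siRNF31 libraries, against 11.34, 10.7 and 10.57 FPKM in siControl libraries, so 18.1% of the siControl level was left. VIM and CAV1, which mark this mesenchymal-like line, were at 476.2 FPKM or above in every library, while EPCAM and CDH1, markers of epithelial cells, stayed at 0.2 FPKM or below. The other 2 markers of the line were lower: CD44 averaged 247 ± 3.35 FPKM in siRNF31 and 550.4 ± 17.3 FPKM in siControl cells (limma, adjusted p = 7.39e-07), and EGFR 38.8 ± 4.97 FPKM in siRNF31 and 51.3 ± 7.46 FPKM in siControl cells (SD, n = 3 each; limma, adjusted p = 0.0207). The sum of the 4, most of it VIM, was 4267 to 4566 FPKM in siRNF31 and 4139 to 4393 FPKM in siControl libraries. Markers of blood cells summed to 0.94 to 1.12 FPKM in siRNF31 libraries and 1.49 to 1.79 FPKM in siControl libraries, and those of endothelium to 0.79 to 0.93 FPKM in siRNF31 and 1.48 to 1.84 FPKM in siControl libraries. The lower sums came from CD14 (mean 0.52 FPKM in siRNF31, 1.24 in siControl) and PECAM1 (0.57 in siRNF31, 1.49 in siControl). The low means of PTPRC, HBB, KDR and VWF were higher in siRNF31, and CDH5 stayed at 0.01 FPKM or below. The part of these markers in the results was not tested, and in such bulk samples fewer cells of a type and less RNA per cell cannot be told apart. Of 11346 genes tested, 63.1% were called at an adjusted p below 0.05, so a call by itself sets a gene apart from few others. The groups lay apart on principal component 1 (89.0% of the variance). Component 2 (7.18%) set siRNF31 replicate 3 and siControl replicate 1 (scores 12.2 and 11.5) apart from the other libraries. Those were themselves spread, from -1.87 in siControl replicate 2 to -10.3 in siControl replicate 3.

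In siRNF31 cells, 3 BH3-only members and the 2 expressed anti-apoptotic members were higher, and 2 BH3-only members and both effectors were lower. The extremes were PMAIP1, higher by 5.72-fold in mean FPKM, and BID, at 28.5% of its siControl level. Of the 10 members, 9 passed the filter on low values (FPKM of at least 1 in at least 3 libraries) and BCL2 did not. All 9 were called by limma, 5 higher and 4 lower, where the shares over all tested genes were 26.6% higher and 36.5% lower. The groups did not overlap for these 9 members, as was true of 67.2% of tested genes. BMF passed the filter through its siControl values only and had to differ for that reason. Members shared no common direction, and the sizes and directions of single members carry the result.

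**Figure D1:**
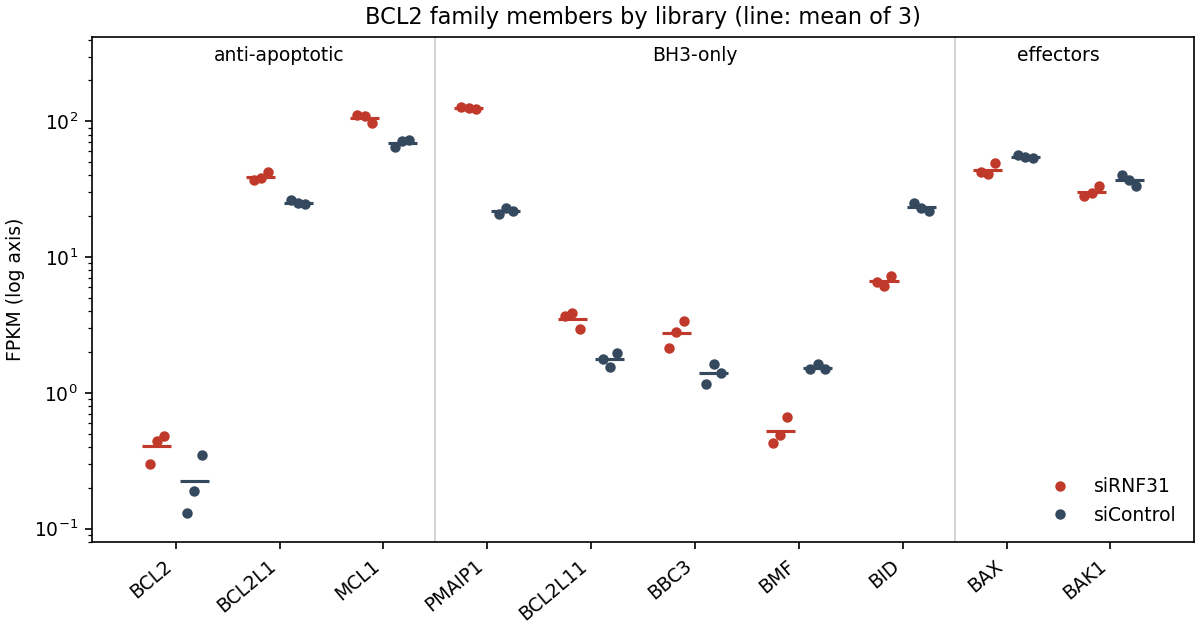
FPKM of the 10 members in each library on a log axis, with siRNF31 (red) left of siControl (dark) and a line at the mean of 3 libraries. PMAIP1 lies between 122.94 and 127.34 in siRNF31 libraries, above all its siControl values, BID and BMF lie below theirs, and the values of BCL2 overlap.

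PMAIP1 (Gene ID 5366) encodes NOXA, a BH3-only protein induced by the integrated stress response factors ATF4 and CHOP. It measured 127.34, 125.99 and 122.94 FPKM in siRNF31 libraries and 20.87, 22.96 and 22.0 FPKM in siControl libraries. Each siRNF31 value was more than 5 times each siControl value, and the libraries of a group lay close together. Its log2 fold change of 2.46 (standard error 0.055, limma adjusted p = 2.72e-08) ranked 29 among the 11346 tested genes ordered from the largest rise down. PMAIP1 was the first member by level in siRNF31 cells and the sixth in siControl cells, and its level exceeded that of 95.2% of tested genes in siRNF31 and 69.4% in siControl cells.

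BCL2L11 (Gene ID 10018), which encodes BIM, a direct activator of BAX and BAK, measured 3.71, 3.86 and 2.93 FPKM in siRNF31 libraries and 1.78, 1.56 and 1.98 FPKM in siControl libraries. BBC3 (Gene ID 27113), which encodes the damage-inducible protein PUMA, measured 2.13, 2.81 and 3.37 FPKM in siRNF31 libraries and 1.17, 1.63 and 1.41 FPKM in siControl libraries. Both stood at 1.97-fold in mean FPKM with no overlap between groups, although their levels were low throughout. The log2 fold changes were 0.69 for BCL2L11 (standard error 0.10, limma adjusted p = 0.00037) and 0.64 for BBC3 (standard error 0.13, limma adjusted p = 0.00228). With 0.1 in place of 1 added before the logarithm, they were 0.94 for BCL2L11 and 0.92 for BBC3. BBC3 varied most among the members called higher, with a coefficient of variation of 22.4% in siRNF31 and 16.4% in siControl libraries. It was highest in siRNF31 replicate 3 and lowest in siControl replicate 1, the libraries that stood apart, and without both its log2 fold change was 0.46 (limma, adjusted p = 0.00434).

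These 3 genes rose together, and the letters just before their RefSeq starts (GRCh38.p14) are shown with 1 short motif each in capitals. Motifs were picked after the fold changes were known and were searched on both strands in the 250 bases before the start. PMAIP1 holds the core of the cAMP response element, TGACGT, which ATF and CREB proteins bind. It lies on the opposite strand, from base 56 to base 51 before the start, and the printed strand reads ACGTCA. BBC3 holds an AP-1 match (TGANTCA) from base 113, which reads as a match on both strands, and BCL2L11 a forkhead (FOXO) match (GTAAACA) from base 223. The stretches are chr18:59899746-59899995 on the plus strand, chr19:47232744-47232810 on the minus strand and chr2:111120664-111120727 on the plus strand.
PMAIP1: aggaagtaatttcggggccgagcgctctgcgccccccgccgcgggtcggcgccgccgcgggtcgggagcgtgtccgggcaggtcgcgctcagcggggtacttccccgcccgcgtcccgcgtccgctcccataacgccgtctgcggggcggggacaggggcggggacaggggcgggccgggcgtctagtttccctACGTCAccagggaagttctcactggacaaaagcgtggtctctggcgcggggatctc
BBC3: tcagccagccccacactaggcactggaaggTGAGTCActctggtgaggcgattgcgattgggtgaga
BCL2L11: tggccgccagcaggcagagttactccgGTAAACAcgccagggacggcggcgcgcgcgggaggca
Of 35116 promoter entries, 7.10% held the core TGACGT, 6.57% the AP-1 motif and 2.98% the FOXO motif. No other member with an entry held any of these 3 in its 250 bases, and BCL2L1, also called higher, was among those without. MCL1 had no entry, and 9 members had 15 entries between them. The element TGATGCAA, bound by C/EBP and ATF dimers, was present in 0.772% of entries and in no member. A match describes the letters only, and binding was not measured.

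BID and BMF went the other way. BID (Gene ID 637), whose product is cut by caspase-8 and then carries the death receptor signal to mitochondria, measured 6.58, 6.17 and 7.25 FPKM in siRNF31 libraries and 25.14, 23.04 and 22.04 FPKM in siControl libraries. The highest siRNF31 value was less than the lowest siControl value by a wide margin. The log2 fold change was -1.67 (standard error 0.076, limma adjusted p = 4.81e-07), the 86th from the bottom among all tested genes. In level BID stood above 36.1% of tested genes in siRNF31 cells and above 71.0% in siControl cells.

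BMF (Gene ID 90427), a BH3-only protein held by the myosin motor through a dynein light chain, measured 0.43, 0.49 and 0.66 FPKM in siRNF31 libraries and 1.5, 1.62 and 1.49 FPKM in siControl libraries. Mean FPKM was 34.3% of that in siControl. The log2 fold change was -0.73 (standard error 0.077, limma adjusted p = 5.89e-05). For so low a gene it depends on the constant added before the logarithm, and with 0.1 in place of 1 it was -1.40 (limma, adjusted p = 9.64e-05). Both fits used the filter that BMF passed through its siControl values only, so these p-values are not independent support.

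Among the anti-apoptotic genes MCL1 was the most abundant. MCL1 (Gene ID 4170), a short-lived protein that NOXA marks for degradation, measured 110.65, 109.84 and 97.0 FPKM in siRNF31 libraries and 64.93, 71.14 and 72.6 FPKM in siControl libraries. BCL2L1 (Gene ID 598), which encodes BCL-XL and, by splicing, the pro-apoptotic BCL-XS, measured 36.94, 38.34 and 42.37 FPKM in siRNF31 libraries and 26.17, 25.06 and 24.42 FPKM in siControl libraries. Every siRNF31 value lay above every siControl value for both genes. Their changes were alike in size, with log2 fold changes of 0.60 for MCL1 (95% interval 0.43 to 0.76, limma adjusted p = 0.000129) and 0.62 for BCL2L1 (95% interval 0.47 to 0.76, limma adjusted p = 5.59e-05). MCL1 was lowest within its group in siRNF31 replicate 3 and in siControl replicate 1, the libraries that stood apart, and without both its log2 fold change was 0.61.

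BCL2 (Gene ID 596), the founding member of the family, was listed at 0.3, 0.44 and 0.48 FPKM in siRNF31 libraries and at 0.13, 0.19 and 0.35 FPKM in siControl libraries. The groups overlapped, and no value reached the filter, so BCL2 was not tested. With no filter on low values its log2 fold change was 0.20 and did not pass (limma, adjusted p = 0.0747). In mean FPKM BCL2 was the lowest of the 10 in both groups. MCL1 made up 72.7% of the summed anti-apoptotic FPKM in siRNF31 and 73.2% in siControl cells, a difference within the spread of the libraries.

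The effectors fell by little. BAX (Gene ID 581) measured 42.21, 40.85 and 49.15 FPKM in siRNF31 libraries and 56.59, 54.49 and 53.47 FPKM in siControl libraries. Its mean was 80.4% of that in siControl (log2 fold change -0.31, standard error 0.075, limma adjusted p = 0.00592). BAK1 (Gene ID 578) measured 28.03, 29.86 and 33.25 FPKM in siRNF31 libraries and 39.93, 37.15 and 33.34 FPKM in siControl libraries. The groups of BAK1 were separated only by the last pair of values, 33.25 in siRNF31 replicate 3 and 33.34 in siControl replicate 3. The log2 fold change of BAK1 was -0.27 (95% interval -0.46 to -0.08, limma adjusted p = 0.0217).

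The BAK1 call was lost when siControl replicate 1 (limma, adjusted p = 0.0571), siControl replicate 2 (0.0698), siRNF31 replicate 1 (0.0811) or siRNF31 replicate 2 (0.0661) was left out. BAX and BAK1 were highest within their groups in siRNF31 replicate 3 and siControl replicate 1, which stood apart in the principal components. Without both of these libraries the log2 fold changes were -0.37 for BAX (limma, adjusted p = 4.81e-05) and -0.27 for BAK1 (limma, adjusted p = 0.00269). RefSeq lists the pseudogenes BAK1P1 and BAK1P2, which can share reads with BAK1, so its value is uncertain.

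The promoter of BAX is printed because it stands out in sequence among the members. In the 148 bases before its start, on the plus strand at chr19:48954727-48954874 (GRCh38.p14, RefSeq), it holds 4 copies of the E-box CACGTG, shown in capitals, which MYC and related factors bind.
BAX: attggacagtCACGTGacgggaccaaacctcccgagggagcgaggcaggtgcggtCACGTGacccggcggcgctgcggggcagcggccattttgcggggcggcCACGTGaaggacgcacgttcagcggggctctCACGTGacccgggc
The motif reads the same on both strands. It was present in 6.34% of the promoter entries, and 4 or more copies in 0.0142%. The cut-off of 4 is the count found in BAX itself, so it was not chosen independently. BBC3 and 2 of 5 entries of BID also held a copy. MYC itself had 70.6 ± 3.13 FPKM in siRNF31 and 32.9 ± 1.78 FPKM in siControl cells (SD, n = 3 each). MYC, which is in the list of transcription factors described further on, lies outside the rule for named genes and was added for this motif after its values were seen.

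**Figure D2:**
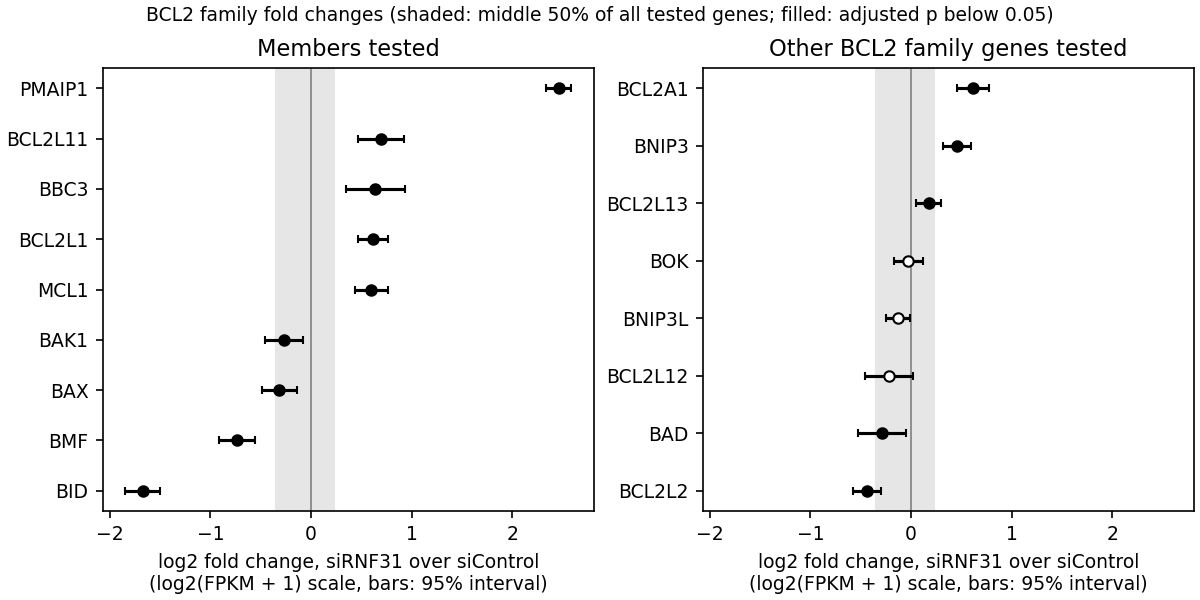
Log2 fold change of siRNF31 over siControl with 95% intervals for the 9 tested members and for 8 other tested BCL2 family genes, filled where the adjusted p is below 0.05, with the middle 50% of all tested genes (-0.35 to 0.23) shaded. PMAIP1 and BID lie far outside the shaded band, BAX and BAK1 lie within it, and 4 members lie between 0.60 and 0.69. The closeness of these 4 depends on the constant of 1 added before the logarithm. With 0.1 as the constant BCL2L11 and BBC3 were at 0.94 and 0.92, and MCL1 and BCL2L1 at 0.60 and 0.63.

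Within a library the ratio of PMAIP1 to MCL1 does not depend on scaling between libraries. It was 1.15, 1.15 and 1.27 in siRNF31 libraries and 0.321, 0.323 and 0.303 in siControl libraries. PMAIP1 thus exceeded MCL1 per length in every siRNF31 library and in no siControl library. The ratio averaged 1.19 ± 0.068 in siRNF31 and 0.316 ± 0.011 in siControl cells (SD, n = 3 each), 3.76-fold apart (exact two-sided permutation test, p = 0.1, the smallest that 3 against 3 libraries allow).

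The summed FPKM of the 5 BH3-only members was 139 ± 1.57 in siRNF31 and 50.1 ± 1.01 in siControl cells (SD, n = 3 each). The anti-apoptotic sum was 139.8 to 148.6 in siRNF31 and 91.23 to 97.37 in siControl libraries, 1.53-fold apart, and the effector sum 74.5 ± 6.89 in siRNF31 and 91.7 ± 4.86 in siControl cells. The ratio of BH3-only to anti-apoptotic FPKM was 0.955 ± 0.023 in siRNF31 and 0.528 ± 0.025 in siControl cells, 1.81-fold apart. PMAIP1 made up 90.3% of the BH3-only sum in siRNF31 and 43.8% in siControl cells, while BID made up 4.80% in siRNF31 and 46.7% in siControl cells. BCL2L2 and BCL2A1 were then added to the anti-apoptotic side, and BAD, BIK and HRK to the BH3-only side. With them the ratio was 1.16 ± 0.051 in siRNF31 and 0.946 ± 0.096 in siControl cells, 1.23-fold apart. Most of the added BH3-only FPKM was BAD, at 43.4 FPKM in siRNF31 and 53.3 FPKM in siControl cells. The remaining family genes, BNIP3 among them, were in neither sum. These sums weigh each transcript alike, whatever protein it yields, and were not tested.

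**Figure D3:**
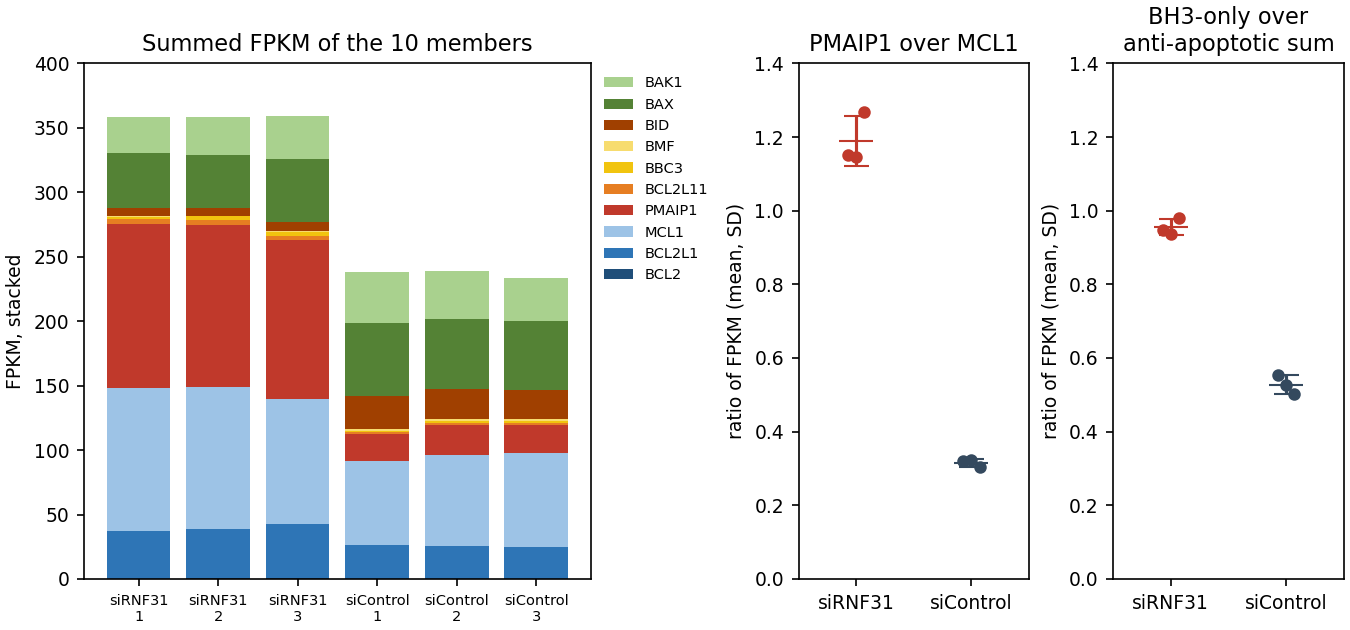
Left, FPKM of the 10 members stacked by library; middle and right, the ratio of PMAIP1 to MCL1 and of the BH3-only to the anti-apoptotic sum in each library, with the mean and SD of 3 libraries. The stacks reach 358.3 to 359.4 in siRNF31 and 233.1 to 238.8 in siControl libraries, and the siRNF31 points of both ratios lie above all siControl points.

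The order of levels changed with the group. In siRNF31 cells it ran from PMAIP1 and MCL1 through BAX, BCL2L1, BAK1, BID, BCL2L11, BBC3 and BMF to BCL2, with overlapping ranges for BAX and BCL2L1, for BCL2L11 and BBC3 and for BMF and BCL2. In siControl cells it ran from MCL1 through BAX, BAK1, BCL2L1, BID, PMAIP1, BCL2L11, BMF and BBC3 to BCL2. There BCL2L1 overlapped BID, BID overlapped PMAIP1, BCL2L11 overlapped BMF and BMF overlapped BBC3. All these levels are FPKM and depend on the transcript length the authors used.

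BCL2L10 was not analysed here. Of 12 other BCL2 family genes in the tables, 8 were tested, of which 3 were higher, 2 were lower and 3 did not pass (62.5% called, where all genes gave 63.1%). BCL2A1, an anti-apoptotic member known as an NF-kB target, measured 1.69, 1.69 and 1.87 FPKM in siRNF31 libraries and 0.8, 0.88 and 0.71 FPKM in siControl libraries (log2 fold change 0.61, limma adjusted p = 9.60e-05). It passed the filter through its siRNF31 values only, and with 0.1 as the added constant its log2 fold change was 1.05. BCL2L2, which encodes the anti-apoptotic BCL-W, measured 9.89, 9.3 and 10.37 FPKM in siRNF31 libraries and 13.6, 13.74 and 13.72 FPKM in siControl libraries (log2 fold change -0.44, limma adjusted p = 0.000271). BCL-W thus moved opposite to MCL1 and BCL2L1, and its transcript can share reads with the read-through gene BCL2L2-PABPN1.

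BNIP3, a hypoxia-induced mitophagy receptor, was higher in siRNF31, at 252 ± 2.96 FPKM against 184 ± 10.9 FPKM in siControl (limma, adjusted p = 0.000237). Its paralog BNIP3L had a log2 fold change of -0.13 and did not pass (limma, adjusted p = 0.0631). BCL2L13 was higher by 0.18 on the log2 scale (limma, adjusted p = 0.0205) and BAD, a BH3-only protein controlled by phosphorylation, was lower by a log2 fold change of -0.29 (limma, adjusted p = 0.0377). The BAD groups overlapped, and both calls were lost in several alternatives, as described with the processing. BOK and BCL2L12 did not pass, with 95% intervals of -0.17 to 0.12 for BOK and -0.46 to 0.02 for BCL2L12. BIK was listed at 0.22, 0.33 and 0.38 FPKM in siRNF31 libraries and at 0, 0.05 and 0 FPKM in siControl libraries, HRK and BCL2L14 stayed at 0.12 FPKM or below and BCL2L15 at 0.31 FPKM or below, and these 4 were not tested.

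Downstream of the family, 1 of 12 apoptosome and caspase genes analysed here was higher and 7 were lower (median log2 fold change -0.25, where all tested genes had -0.06). The share called, 66.7%, was near the 63.1% of all tested genes, of which 26.6% were higher and 36.5% lower. This count does not cover the whole apoptosis pathway, since some genes are not reported here. CASP9, the caspase activated on the apoptosome, measured 1.7, 1.59 and 2.29 FPKM in siRNF31 libraries and 5.45, 5.34 and 5.38 FPKM in siControl libraries (log2 fold change -1.17, limma adjusted p = 1.30e-05). CASP6, an executioner caspase, was lower, with a log2 fold change of -0.61. DIABLO, which encodes a mitochondrial protein that blocks caspase inhibitors once released, was lower by a log2 fold change of -0.42 (limma, adjusted p = 0.00103). CYCS, the cytochrome c gene, was higher at 96.3 ± 2.46 FPKM in siRNF31 against 60.0 ± 3.65 FPKM in siControl cells (SD, n = 3 each). Genes that act together on the apoptosome, CYCS and CASP9, thus moved in opposite directions.

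Of 8 outer membrane and anchor genes 3 were higher and 3 lower (6 of 8 called, where all tested genes gave 63.1%, median log2 fold change -0.06). DYNLL2, the dynein light chain that tethers BMF, measured 19.24, 19.56 and 19.08 FPKM in siRNF31 libraries and 5.63, 5.35 and 5.35 FPKM in siControl libraries (log2 fold change 1.66, limma adjusted p = 1.32e-07), while BMF itself was lower. TOMM20 was lower (log2 fold change -1.04), as was VDAC2, a channel that binds BAK (-0.57), and TOMM22, a BAX receptor, was higher (0.90). Of 12 genes for the turnover of MCL1 and NOXA, 2 were higher and 4 lower (6 of 12 called, a smaller share than the 63.1% of all tested genes, median -0.01). GSK3B, a kinase that primes MCL1 for degradation, had a log2 fold change of 0.73, and PPP2CA, a phosphatase subunit, one of -0.67. USP13, a deubiquitinase of MCL1, was lower by 0.38 on the log2 scale (limma, adjusted p = 0.0248), a call lost without siControl replicate 2 or 3 or without siRNF31 replicate 1 or 3 (adjusted p 0.0536 to 0.0746), and UBE2J2 had a log2 fold change of -0.37.

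Of 12 genes analysed here for transcription factors and cofactors known to act on BH3-only genes, 9 were tested and all 9 were higher. Their median log2 fold change was 1.08, and over all tested genes 26.6% were higher. The list was shortened after its values were seen, because some genes are not reported here, so this count does not describe every such factor. FOXO4 passed the filter through its siRNF31 values only. ATF4, which induces PMAIP1 in the integrated stress response, measured 425.96, 427.34 and 478.14 FPKM in siRNF31 libraries and 266.4, 240.56 and 223.89 FPKM in siControl libraries (log2 fold change 0.86, limma adjusted p = 3.15e-05). DDIT3, which encodes CHOP, an inducer of BCL2L11 and BBC3, measured 76.94, 76.73 and 87.73 FPKM in siRNF31 libraries and 18.72, 15.56 and 16.26 FPKM in siControl libraries (log2 fold change 2.19, limma adjusted p = 2.06e-07). ATF3 was higher by a log2 fold change of 4.06, TRIB3, a target of ATF4 and CHOP, by 2.02 and E2F1 by 1.10. FOXO3, a factor for BCL2L11 and BBC3, was higher by 0.43 (limma, adjusted p = 0.0059). This list was drawn up with the rise of several of these genes known, so its count is not independent evidence.

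**Figure D4:**
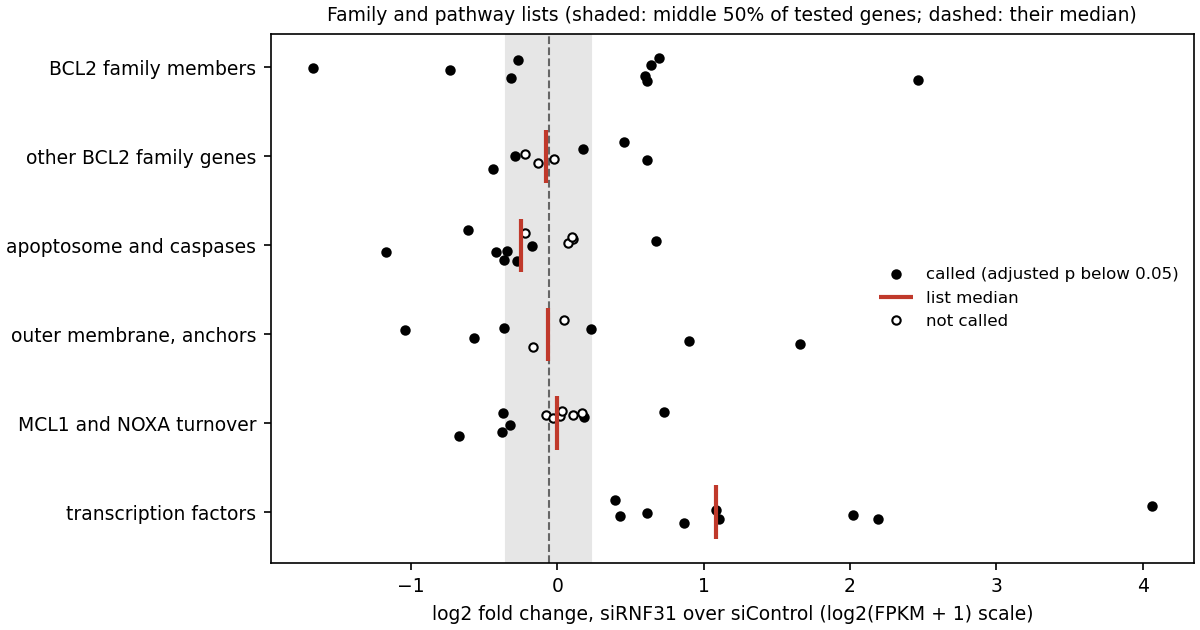
Log2 fold change of siRNF31 over siControl for every tested gene of the family and of 5 related lists, filled where the adjusted p is below 0.05, with a red line at the median of each related list, a dashed line at the median of all tested genes (-0.06) and their middle 50% shaded. The transcription factor list has its median at 1.08, and the medians of the other 4 related lists lie between -0.25 and -0.01. The transcription factor list was drawn up with the rise of several of its genes known.

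The tested genes closest to PMAIP1 over the 6 libraries were SGK1, EFNB2 and H4C14. Likeness was the root mean square difference in log2(FPKM + 1) after the siControl mean of each gene was subtracted, which was 0.025 for SGK1, 0.091 for EFNB2 and 0.097 for H4C14. SGK1, a serum and glucocorticoid induced kinase, was higher by 5.78-fold, at 75.8 ± 0.680 FPKM in siRNF31 and 13.1 ± 0.527 FPKM in siControl cells. EFNB2, an ephrin ligand, stood at 28.0 ± 1.99 FPKM in siRNF31 and 4.56 ± 0.377 FPKM in siControl cells, and the histone gene H4C14 at 7.88 ± 0.408 FPKM in siRNF31 and 0.75 ± 0.108 FPKM in siControl cells (SD, n = 3 each). The likeness of H4C14 depends on the constant of 1 added before the logarithm: its mean FPKM was 10.5-fold higher, against 5.72-fold for PMAIP1, and with 0.1 as the constant the log2 fold changes were 3.24 for H4C14 and 2.51 for PMAIP1. H4C14 passed the filter through its siRNF31 values only, and its near-identical histone copies can share its reads.

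Some annotations bear on the reading of single members. In GENCODE release 29, exons of BCL2L1 overlap those of the antisense RNA ABALON on the opposite strand over 1424 bases, those of BCL2L11 overlap MIR4435-2HG over 727 bases, those of BMF overlap BMF-AS1 over 461 bases and those of BAK1 overlap GGNBP1 over 91 bases. Whether the counting used strand is not given in the sources used here, and reads of these partners could then not be told apart. An earlier search of the same fold changes had picked out 4 sequences of 7 bases that occur in the RNF31 mRNA. Of the members, BID and PMAIP1 carry CTACACA in an annotated 3′ UTR and BCL2L11 carries AAGTTTA, so 3 of 10 carry any of the 4, against 37.7% of 11251 tested genes. One carrier was lower and 2 were higher, and the part of these sequences in the result was not tested.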

How the data were processed

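RNA of 6 libraries was measured after lysis in Trizol and BGISEQ-500 library preparation, per the labels' protocols. The authors deposited FPKM, per the file headers, as 1 table per library with 2 decimals. For alignment, quantification, build and annotation, programs and versions were not given in the sources used here. Column totals ran from 421755 to 463457 FPKM and are not depths. Read counts were not derived. Depth is therefore unknown, and counting intervals and floors cannot be given. FPKM is relative: a gene that takes more fragments lowers all others.

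Values were transformed to log2(FPKM + 1), which understates changes of low genes. The filter kept genes that reached FPKM 1 in 3 or more libraries, and the groups were compared with limma 3.58.1 (R 4.3.3) across all 11346 genes, with an intensity trend and robust moderation. P-values are two-sided, with Benjamini-Hochberg adjustment over all tested genes, and a call is an adjusted p below 0.05. Folds and percentages are ratios of mean FPKM. The fit was tested on simulated data.

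The members, the 5 related gene lists and the motifs were chosen with earlier results of these data known. Genes were named by rule: the members, the other family genes in the tables, up to 4 called genes with the largest change in each further list, ATF4, DDIT3, FOXO3, RNF31 and the 3 genes nearest to PMAIP1. FOXO4, MYC and the cell line and epithelial markers stand outside this rule. Some genes that the lists and the rule first held, and 1 whole list, are not reported here. Promoters came from RefSeq (GRCh38.p14) and exons from GENCODE 29, matched by Gene ID or symbol. Alternatives were a pseudocount of 0.1, no filter, median of ratios scaling, quantile normalization, no trend, a replicate block and leaving out libraries. Other software was Python 3.11.15, matplotlib 3.10.9, scipy 1.17.1, pandas 2.3.3 and numpy 2.4.6.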

Additional observations from a re-analysis of the deposited data

How the results depend on the processing

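The calls of PMAIP1, BCL2L11, BBC3, BCL2L1, MCL1, BID, BMF and BAX held in all 13 alternatives. BMF passed the filter through its siControl values only, so its calls where the filter was kept are not independent support. With no filter BMF was also called lower (limma, adjusted p = 0.000185). BAK1 did not: its log2 fold change stayed between -0.34 and -0.19, but leaving out a library gave values from -0.34 to -0.21 with 4 of 6 calls lost. Deviations of siRNF31 and siControl libraries with the same replicate number correlated at -0.57, 0.12 and -0.63. Between libraries of different number the correlations ran from -0.412 to 0.675. The highest were siRNF31 replicate 3 with siControl replicate 1 (0.675) and siRNF31 replicate 1 with siControl replicate 3 (0.542). These values showed no likeness by number but cannot tell whether the libraries were paired, since deviations from a mean of 3 libraries depend on each other. With the replicate block the log2 fold change of BAK1 was -0.27 at a limma adjusted p of 0.0762, and the block gave 2480 higher and 3497 lower genes against 3022 and 4141 without it. With BCL2L2, BCL2A1, BAD, BIK and HRK added to their sides, the BH3-only to anti-apoptotic fold moved to 1.23 from 1.81. The fold of PMAIP1 to MCL1 stayed between 3.64 and 3.83 when libraries were left out. BOK, which did not pass anywhere, changed sign with median of ratios scaling (0.0136), quantile normalization (0.0454) and without siRNF31 replicate 1 (0.0088), and leaving out a library gave values from -0.0728 to 0.0088. The BAD call was lost in 8 alternatives and that of BCL2L13 in 5. BCL2L12 was called without siRNF31 replicate 3 and BNIP3L without siControl replicate 1, and both without these libraries together. The causes were not tested. The depth behind low members such as BCL2, BMF and BBC3 is unknown.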
